A study of Rattus norvegicus with 4 samples.

Results

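The H1T2 peaks on rat chromosome 1 are described here by their place, length, pileup and background. Members were the rows of the deposited peak list whose chromosome name was exactly that of chromosome 1, which took 1398 of the 11570 peaks. The comparison was with the 9165 peaks on chromosomes 2 to 20, and 1 peak on an unplaced contig assigned to chromosome 1 was not a member. Chromatin immunoprecipitation for H1T2 had been done on testis chromatin of rats aged 35 to 50 days, with 2 IP samples and 2 input samples. The labels give round and elongating spermatids as the cells, and name no strain, treatment or genotype for any of the 4. The list holds no expression values, so the cell type could not be checked against marker genes. By the header of the list, both IP samples and both input samples were merged before peak finding, so that each peak has 1 value and no spread between samples could be given. The merged IP kept 16203958 of 34071564 tags and the merged input 78371120 of 83508652 tags. Coordinates are of the rn6 build.

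H1T2 (gene H1fnt) is a linker histone made in male germ cells after meiosis, and it is found in the nuclei of round and elongating spermatids. Linker histones bind nucleosomes at the entry and exit of DNA and favour compact chromatin, and H1T2 is known for its part in the condensation of the spermatid nucleus, during which most histones are replaced. Much of the mammalian genome between genes consists of repeats. Among them are LINE elements, which are retrotransposons, and satellites, which are units repeated in tandem. Reads from such copies are hard to place on a single position.

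Primer pairs had been designed by the study for ChIP-PCR at 2 regions on chromosome 1. They are shown because these regions are a weak and a strong peak of this chromosome. The first pair belongs to Tbpl1, a relative of the TATA-binding protein that male germ cells need to mature. The second pair belongs to a region the study names CpG, which was assigned to its peak by the order of the study's lists and by its annotation. This assignment is not certain, and the CpG primers have a GC content of only 37.0% and 33.3%. All bases are in lower case, as no part of a primer was singled out, and each primer is written 5′ to 3′.
Tbpl1 forward primer: tagctgagcttgtctgtataaacgat
Tbpl1 reverse primer: ccgtgcatgttttctgctcatc
CpG region forward primer: atttgccaatactcaggaaatgatacc
CpG region reverse primer: cactcatttcaaaacaagctgcaatta
On either strand, none of these 4 primers matched any of the 33469 promoter windows of RefSeq (build GRCr8), which says only that these letters are not in those windows. No rn6 sequence was used, so the place of the primers within the peaks was not checked. The Tbpl1 peak, chr1:23977211-23977579, held 14 tags at its highest point, with 2.07 tags as its background. Its fold enrichment of 6.77 (95% exact Poisson interval 3.70 to 11.4) placed it at rank 1041 of the 1398 chromosome 1 peaks by p-value. The peak assigned to the CpG region, chr1:213008609-213009881, held 76 tags over a background of 1.65 tags. With a fold enrichment of 46.0 (36.2 to 57.5) it was at rank 13 on the chromosome. The number of IP tags at the highest point of a peak is its pileup, and fold enrichment is the pileup divided by the background, which is the number of tags the peak finder expected there. The lowest background, called the genome background, was 1.65 tags, and it is not a reading of the local input. The kept IP tags times the fragment length of 200 bp, divided by the genome size in the header, give the same 1.65 tags, so that fold enrichments at this background are relative to a constant set by the depth of the IP. Intervals of fold enrichment hold the background fixed and reflect only the counting of tags. No odd pileup occurs among the peaks, so that tags may not be independent and intervals may be too narrow.

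Chromosome 1 carried more peaks per Mb than the other autosomes together, and most of the excess lay in 12 clusters of 10 or more peaks, described below. Over its span of 282.7 Mb, taken from the chromosome start to the end of its last peak, there were 4.94 peaks per Mb (95% exact Poisson interval 4.69 to 5.21), against 3.93 on chromosomes 2 to 20. The ratio of both densities was 1.26 (95% exact conditional interval 1.19 to 1.33). By density chromosome 1 ranked 2 among the 20 autosomes, after chromosome 19 with 5.07 peaks per Mb. These intervals treat peaks as independent, which peaks in clusters are not, and no p-value was computed. When peaks within 100 kb of the one before were counted once, 642 positions were left on chromosome 1. The density was then 2.27 per Mb against 2.25, a ratio of 1.01 (0.93 to 1.09). By construction, such counting removes more where peaks are dense.

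Along the chromosome, peaks were counted by their midpoint in 57 bins of 5 Mb, the last of which is partial with 2.7 Mb. None of the bins was empty. Over the 56 full bins the count ranged from 10 to 109 peaks, with a median of 21 and quartiles of 16 and 27.2. The 459 full bins of chromosomes 2 to 20 ranged from 4 to 117 peaks, with a median of 18 and quartiles of 14 and 23. Chromosome 1 therefore had a slightly higher median bin and more bins of high count, although the highest bin was on chromosome 19. At least 40 peaks were found in 7 of its 56 bins (12.5%), against 14 of the 459 other bins (3.05%). The variance of the chromosome 1 bin counts was 9.89 times their mean, which ranked 4 among the autosomes. The other autosomes had a median ratio of 3.16, the lowest being chromosome 8 (1.23) and the highest chromosome 19 (35.1). Over the 459 full bins of chromosomes 2 to 20 pooled, the ratio was 4.96.

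**Figure D1:**
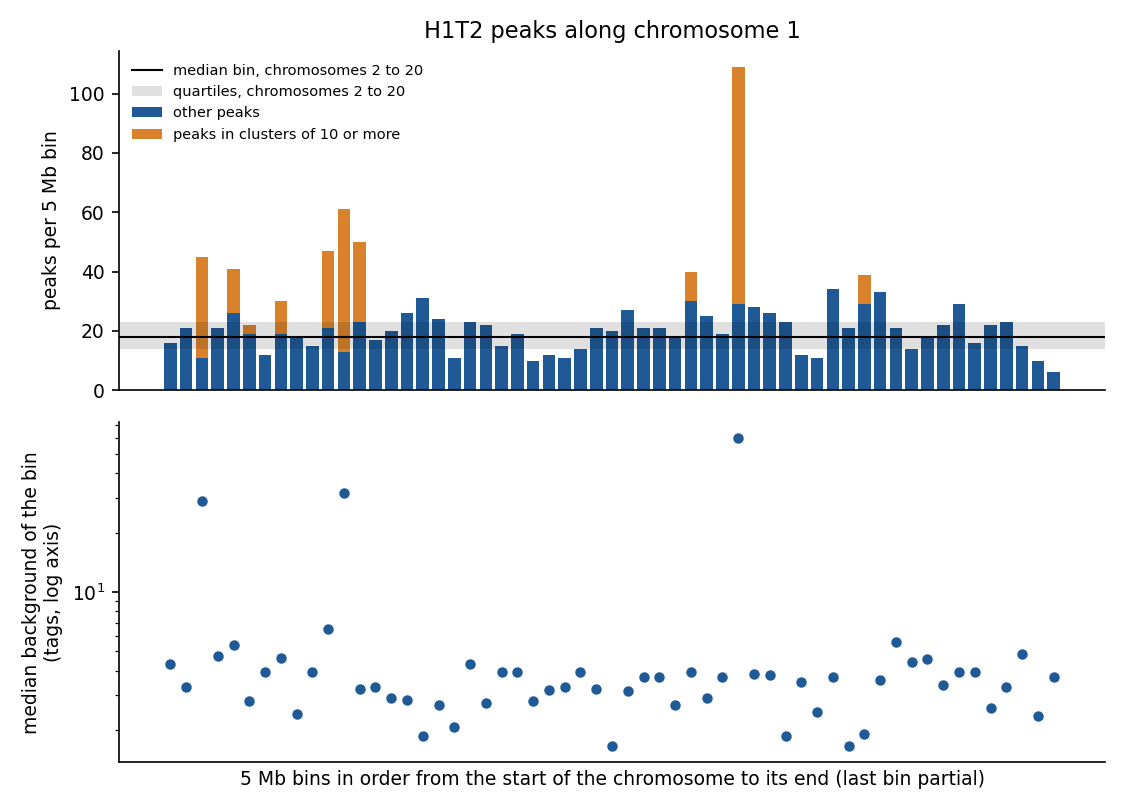
The upper panel shows the number of peaks in each 5 Mb bin of chromosome 1, with peaks in clusters of 10 or more stacked in orange and the median and quartiles of the bins on chromosomes 2 to 20 as a line and a band. The lower panel shows the median background of each bin in tags on a log axis, where 3 bins stand at 29.0, 31.7 and 60.3 tags and the other 54 lie between 1.65 and 6.48 tags.

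The 5 densest bins held 312 peaks, 22.3% of the chromosome (95% Wilson interval 20.2 to 24.6%), in 8.8% of its bins. The bin from 180 to 185 Mb had the most, 109 peaks with a median pileup of 144 tags, a median background of 60.3 tags and a median fold enrichment of 2.96. Next were 3 adjacent bins, from 55 to 60 Mb with 61 peaks, from 60 to 65 Mb with 50 and from 50 to 55 Mb with 47. The bin from 10 to 15 Mb followed with 45 peaks, and its median peak length of 429 bp was the largest of all 57 bins. High counts did not always come with a high background. In the bin from 60 to 65 Mb the median background was 3.23 tags and the median fold enrichment 7.10, whereas in the bin from 55 to 60 Mb they were 31.7 tags and 2.88. Over the 56 full bins, Spearman's rho between the count and the median background was 0.19, and between the count and the median fold enrichment it was -0.35, as descriptions of bins that share 1 pair of merged libraries.

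The sparsest bins were all beyond the first 90 Mb. The fewest peaks were in the partial last bin, with 6, and in the bin before it, from 275 to 280 Mb, with 10. The bin from 115 to 120 Mb also had 10 peaks. The bins from 90 to 95 Mb and from 125 to 130 Mb had 11 each, as did the bin from 205 to 210 Mb. In the bin from 115 to 120 Mb the median fold enrichment was 7.84 over a median background of 2.81 tags, against a chromosome 1 median fold enrichment of 5.91.

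Peaks on chromosome 1 lay closer to each other than on chromosomes 2 to 20 pooled, though not closer than on chromosome 19. The median gap between neighbours was 80.8 kb (quartiles 8.9 and 273.1 kb), against 140.0 kb (33.1 and 354.6 kb) on chromosomes 2 to 20. Gaps of at most 10 kb made up 356 of 1397 (25.5%), against 16.9% of the others. With gaps of up to 100 kb joined, 12 clusters on chromosome 1 had 10 or more peaks, and together they held 264 peaks (18.9%). On chromosomes 2 to 20 such clusters held 533 peaks (5.8%). The share of chromosome 1 ranked 2 among the autosomes, after chromosome 19 with 133 of 315 peaks (42.2%) and before chromosome 14 with 80 of 492 (16.3%), all of them in 1 cluster as large as the largest on chromosome 1. The median gap was also smaller on chromosome 19, at 56.6 kb. The size of 10 was chosen after the data were seen. Per Mb, peaks in these clusters were 4.09 times as frequent on chromosome 1 (3.51 to 4.75) and the remaining peaks 1.08 times (1.02 to 1.15). The remaining 1134 peaks gave 4.01 per Mb (3.78 to 4.25), rank 5 among the autosomes, where the range of the others was 2.93 to 4.27. Their bins held 10 to 34 peaks, and the variance was 1.91 times the mean, against 2.25 over the pooled bins of the other autosomes.

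**Figure D2:**
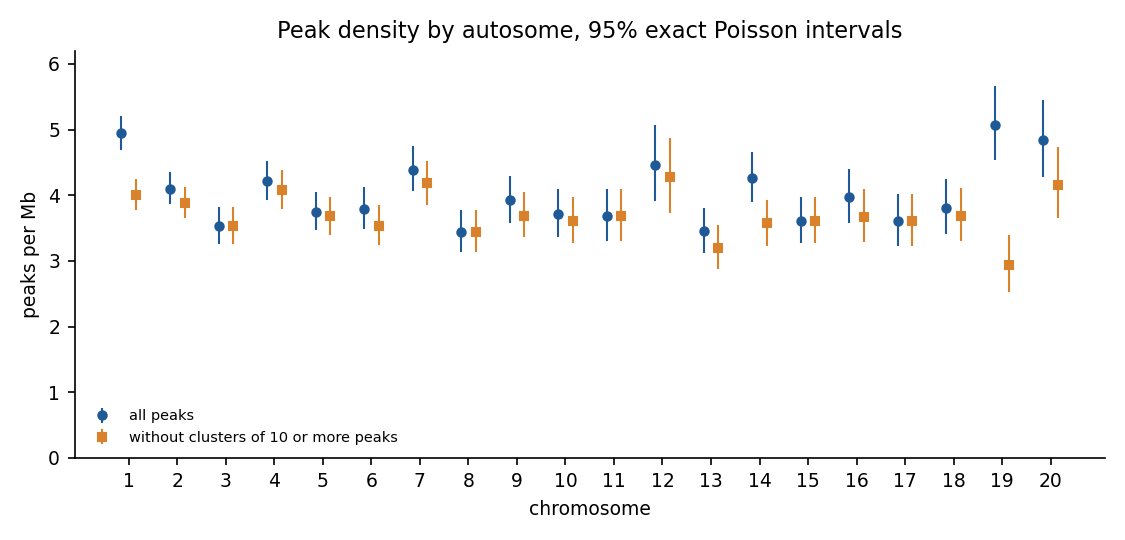
Peaks per Mb of each autosome with 95% exact Poisson intervals, for all peaks (circles) and without clusters of 10 or more peaks (squares). Chromosome 1 stands at 4.94 with all peaks and at 4.01 without these clusters, where its interval of 3.78 to 4.25 overlaps those of most other autosomes.

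The largest cluster on chromosome 1 had 80 peaks in 939.7 kb, chr1:180406889-181346615. Its pileups had a median of 184 tags and its backgrounds a median of 77.7 tags, from 2.48 to 132.1 tags, so that the median fold enrichment was 2.66 (quartiles 2.14 and 3.36). The study annotated its whole list, but the copy used here was cut short and holds the peaks with the smallest p-values, among them 48 of the 80. The annotation named the satellite SATI_RN at 34 of these and the satellite ISAT_RN at 14. The nearest gene of all 48 was Rras2, a small GTPase of the Ras family. The 3 peaks with the highest background on the chromosome were in this cluster, and so were the 4 with the highest pileup, of which 2 were tied at 418 tags. The first, chr1:180645736-180646428, had 428 tags over 132.1 tags and a fold enrichment of 3.24 (2.94 to 3.56). The others, chr1:180808351-180809590 and chr1:180805956-180807468, had 426 and 418 tags and fold enrichments of 3.28 and 3.26, and these 3 were the ones with the highest background. The peak tied with the last of them, chr1:180893094-180893640, had a lower background of 121.2 tags. The smallest p-value of the cluster belonged to chr1:180896788-180897147 in SATI_RN, at rank 3 on the chromosome, where 406 tags gave a fold enrichment of 4.23 (3.83 to 4.66). Another SATI_RN peak, chr1:180858090-180858420, was at rank 5 with a fold enrichment of 4.28 (3.86 to 4.73). These were peaks of high pileup over a high background, not of high fold enrichment.

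Ribosomal RNA genes marked the second cluster. It had 34 peaks within 71.5 kb, chr1:11903594-11975082, and they covered 49.6% of that stretch, against 3.5% for the largest cluster. The nearest gene of its 25 annotated peaks was Rn5-8s, a ribosomal RNA gene, for 14 and LOC310926 for 11. The repeats named included LSU-rRNA_Hsa, a copy of large-subunit ribosomal RNA, at 4 peaks. RNLTR3-int was also named at 4, and 6 peaks were annotated only as intergenic. All 3 promoter peaks among the annotated chromosome 1 peaks and the only exon peak were in this cluster. The 3 longest peaks of the chromosome were also there. The longest, chr1:11960559-11968924, measured 8366 bp at an annotated CpG island, and its 232 tags were 5.87 times the background (5.14 to 6.68). The next, chr1:11908999-11913081 also a CpG island, in an intron of LOC310926, measured 4083 bp. With 250 tags over 31.6 tags and a fold enrichment of 7.92 (6.97 to 8.97) it had the second smallest p-value on chromosome 1. The third, chr1:11928477-11930569, measured 2093 bp and had a fold enrichment of 4.06.

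The third cluster had 28 peaks in 139.6 kb, chr1:55635488-55775119. The median background was 47.5 tags and the median fold enrichment 2.45, the lowest of the 12 clusters. All 13 annotated peaks had Vom2r9, a vomeronasal receptor gene, as nearest gene, and no repeat was named at 11 of them. The other 9 clusters had 10 to 26 peaks each and median backgrounds from 1.78 to 34.3 tags. The fourth, chr1:53929366-54640059, with 26 peaks, was spread over 710.7 kb and had a median background of 6.94 tags. Clusters were therefore of different kinds. Some had median backgrounds near the median of 3.31 tags for chromosome 1 peaks outside clusters of 10 or more. The cluster chr1:63384125-63677875, for example, had 16 peaks with a median background of 3.22 tags and a median fold enrichment of 5.87.

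The 3 largest clusters together held 142 peaks, 10.2% of the chromosome 1 list, in 0.41% of the span. They held 40.6% of the summed pileup of all chromosome 1 peaks. Without these 3 clusters and their span, 1256 peaks gave 4.46 per Mb. That was 1.14 times (1.07 to 1.21) the density of chromosomes 2 to 20, from which no cluster was taken out.

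High backgrounds were more frequent on chromosome 1 than on the other autosomes pooled, while the median background was shared with several of them. The median background was 3.93 tags (95% order-statistic interval 3.72 to 4.13, quartiles 2.18 and 7.24), against 3.47 tags (3.31 to 3.52, quartiles 2.07 and 5.78) on chromosomes 2 to 20. Chromosomes 2, 9 and 11 had the same median of 3.93 tags, and chromosome 19 had 4.14 tags. The upper tail differed more than the median. The 90th percentile was 32.3 tags on chromosome 1 and 9.09 tags on the others. With clusters of 10 or more peaks left out of both sets, it was 8.62 and 8.06 tags. A background over 20 times the genome background of 1.65 tags was found at 137 chromosome 1 peaks (9.80%, 95% Wilson interval 8.35 to 11.5%), against 179 of 9165 (1.95%, 1.69 to 2.26%). Chromosome 14 came nearest with 8.54%. Of the 137 peaks, 110 were in the 3 largest clusters. At the lower end, 215 chromosome 1 peaks (15.4%, 13.6 to 17.4%) had the genome background itself, against 16.8% (16.1 to 17.6%) on the others. In this respect chromosome 1 was at rank 12 of the 20 autosomes, whose shares ran from 8.4% on chromosome 2 to 39.6% on chromosome 12.

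Fold enrichment fell as background rose. On chromosome 1 the median fold enrichment was 8.47 for peaks at the genome background, 6.05 up to 5 times that background, 3.77 from 5 to 20 times and 2.48 above. The corresponding medians of chromosomes 2 to 20 were 8.47, 5.95, 3.93 and 3.02, so that the highest class differed most. Spearman's rho between background and fold enrichment was -0.79 over the 1398 peaks. Since background is the divisor of fold enrichment and a peak needs a minimum of tags to be listed, such a relation is in part built into the values. Median pileups rose over the same classes from 14 to 22, 56 and 162 tags.

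**Figure D3:**
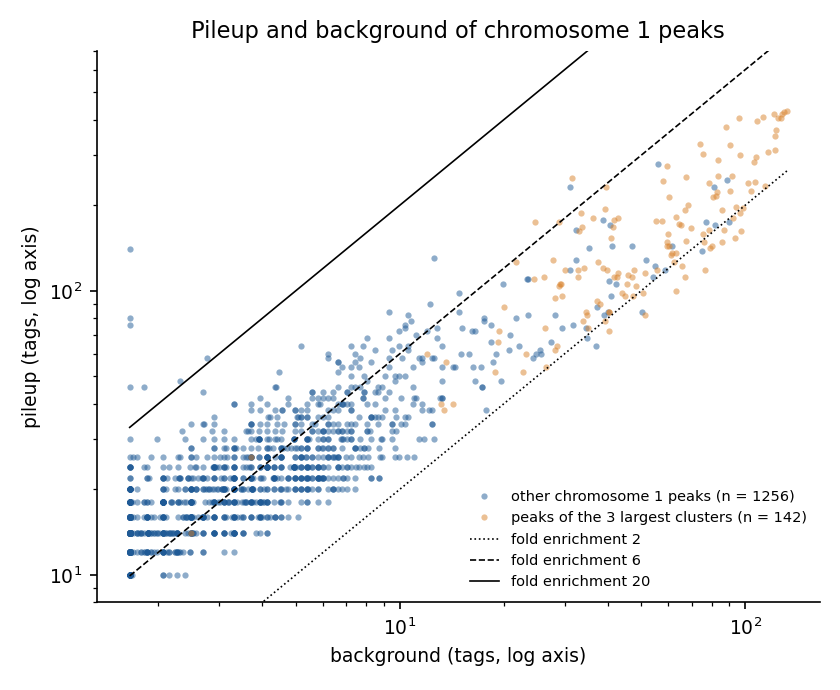
Each point is 1 chromosome 1 peak, with its background on the horizontal and its pileup on the vertical log axis, both in tags, and lines mark fold enrichments of 2, 6 and 20. The 142 peaks of the 3 largest clusters (orange) lie mostly at the right, near a fold enrichment of 2 to 6, and the few points far above the line of 20 are at the genome background of 1.65 tags.

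Length, pileup and fold enrichment differed little in their medians. The median length was 270 bp (263 to 277 bp, quartiles 214 and 374.5 bp), against 265 bp (263 to 268 bp, quartiles 210 and 356 bp) on chromosomes 2 to 20, so that the intervals overlapped. Peaks over 1000 bp numbered 23 (1.65%, 1.10 to 2.46%), against 1.01% (0.83 to 1.24%) of the others, and 12 of the 23 were in the 3 largest clusters. The median pileup was 22 tags (22 to 24, quartiles 16 and 36), against 20 tags (20 to 22, quartiles 16 and 30). Its 90th percentile was 96 tags, against 46 tags, and outside clusters of 10 or more peaks it was 44 tags, against 40 tags. The median fold enrichment was 5.91 (5.74 to 6.05, quartiles 4.19 and 7.79), below the 6.16 (6.11 to 6.24, quartiles 4.66 and 7.99) of the others. With clusters of 10 or more peaks left out of both sets, the median length was 264.5 bp (257 to 271 bp) on chromosome 1 and 263.5 bp (261 to 266 bp) on the others, and the median pileup was 20 tags in both. The median background was 3.31 tags (3.14 to 3.52) against 3.31 tags (3.31 to 3.35). The median fold enrichment was 6.36 (6.14 to 6.56) against 6.27 (6.22 to 6.36), so that its direction turned and the intervals overlapped.

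The 5 largest fold enrichments were all outside clusters of 10 or more peaks. The first, chr1:162984441-162985207, had the largest fold enrichment and the smallest p-value of chromosome 1. It lay between genes at an annotated CpG island nearest to Myo7a, an unconventional myosin needed by hair cells of the inner ear, and no other peak was within 100 kb. Its 140 tags over the genome background gave a fold enrichment of 84.7 (71.2 to 99.9). The next was chr1:268524881-268526126 at a CpG island in an intron of Sorcs3, a sorting receptor of neurons, where 80 tags gave a fold enrichment of 48.4 (38.4 to 60.2). The peak assigned to the CpG primers above, nearest to the olfactory receptor gene Olr299, followed. After it came chr1:265469249-265469645, a CpG island nearest to the growth factor gene Fgf8, with 27.8 (20.4 to 37.1). The fifth, chr1:187609464-187609774, was in a simple repeat nearest to the ribosomal protein gene Rps15a and had a fold enrichment of 25.3 (18.5 to 33.7). Of these 5 peaks, 4 were annotated as CpG and had the genome background, so that their fold enrichments are relative to that constant and not to the local input. Over all annotated peaks a CpG island was named at 9 of 286 on chromosome 1 (3.1%, 1.7 to 5.9%) and at 34 of 1438 on chromosomes 2 to 20 (2.4%, 1.7 to 3.3%). The CpG annotation was not limited to such peaks, as 4 of the 9 were in the ribosomal RNA cluster. The other peak among the 5 smallest p-values, chr1:30985740-30986023, lay between genes, nearest to Echdc1, an enzyme that clears a side product of fatty acid synthesis, with no repeat named. It was a single peak of 232 tags over 31.0 tags, that is a fold enrichment of 7.48 (6.55 to 8.51).

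In 3 of the 5 densest bins, the peak with the smallest p-value was outside the clusters of 10 or more. In the bin from 55 to 60 Mb it was chr1:56789885-56790131, nearest to Thbs2, which encodes a matrix glycoprotein, where 130 tags gave a fold enrichment of 10.3 (8.61 to 12.2). In the bin from 50 to 55 Mb it was chr1:53702782-53703119, an RNHAL1 element nearest to the afadin gene Afdn, with a fold enrichment of 15.7 (10.3 to 23.0). In the bin from 60 to 65 Mb it was chr1:60308348-60309417, a RatSatRep2 repeat nearest to the vomeronasal receptor gene Vom1r13, with a fold enrichment of 7.16 (5.62 to 8.99).

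Annotation could be matched by position for 286 of the 1398 peaks (20.5%), and for 1438 of the 9165 (15.7%). These were the peaks with a -log10 p-value of at least 17.78, as the copy of the study's annotation ends there, so that weaker peaks are outside these counts. On chromosome 1, 248 of the 286 (86.7%, 95% Wilson interval 82.3 to 90.2%) were intergenic, against 79.2% (77.0 to 81.2%), and 33 (11.5%, 8.3 to 15.8%) were in introns, against 19.2% (17.2 to 21.3%). LINE elements were named at 97 chromosome 1 peaks (33.9%, 28.7 to 39.6%), in 43 bins, against 39.5% (37.0 to 42.1%) on the others. Their median fold enrichment was 7.86 over a median background of 5.17 tags. RatSatRep2, a rat repeat, was named at 52 peaks in 34 bins (18.2%, 14.1 to 23.1%), against 30.3% (27.9 to 32.7%) on the others. Satellites other than RatSatRep2 were named at 54 peaks (18.9%, 14.8 to 23.8%), against 4.5% (3.6 to 5.7%). While the LINE and RatSatRep2 peaks were spread along the chromosome, the satellite peaks fell into 4 bins and 5 clusters or single positions, with a median background of 83.2 tags. With clusters of 10 or more peaks left out of both sets, 188 annotated peaks remained on chromosome 1 and 1252 on the others. LINE then made up 50.0% (42.9 to 57.1%) on chromosome 1 and 44.6% (41.8 to 47.3%) on the others, and satellites 3.2% (1.5 to 6.8%) and 3.0% (2.2 to 4.1%). RatSatRep2 was at 26.1% (20.3 to 32.8%) against 34.1% (31.5 to 36.8%). Intergenic peaks then made up 83.5% (77.5 to 88.1%) against 80% (77.7 to 82.2%). Intron peaks made up 16.0% (11.4 to 21.9%) against 19.2% (17.2 to 21.5%). Both differences in place were smaller than with the clusters and kept their direction, and the intervals, now from fewer peaks, overlapped. Peaks of 1 cluster are not independent, so the intervals of these shares are too narrow where a cluster weighs heavily.

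**Figure D4:**
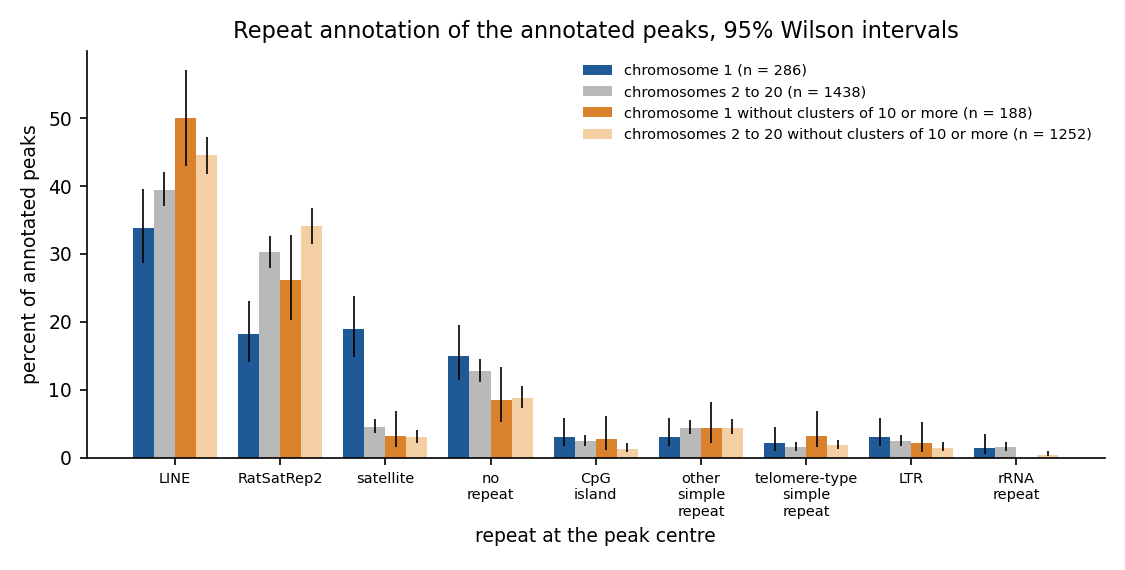
Share of annotated peaks, in percent with 95% Wilson intervals, by the repeat named at the peak, for chromosome 1 (286 peaks) and chromosomes 2 to 20 (1438), and for both without clusters of 10 or more peaks (188 and 1252). The satellite shares are 18.9% and 4.5% with these clusters and 3.2% and 3.0% without them.

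Simple repeats whose unit is a rotation of TTAGGG on either strand, the repeat found at chromosome ends, were looked for among the annotation's names after the data were seen. They were named at 6 of the 286 annotated chromosome 1 peaks (2.1%, 1.0 to 4.5%) and at 22 of the 1438 on the other autosomes (1.5%, 1.0 to 2.3%). With clusters of 10 or more peaks left out of both sets, the shares were 3.2% (1.5 to 6.8%) of 188 and 1.8% (1.2 to 2.6%) of 1252. The intervals overlapped in both cases. The 6 peaks had pileups of 78 to 280 tags and a median fold enrichment of 4.55, over a median background of 29.4 tags. Of these, 2 were near the chromosome start, chr1:50256-50472 and chr1:270799-271028, both nearest to the vomeronasal receptor gene Vom2r3. The others were inside the chromosome, among them chr1:36361177-36361437 nearest to Papd7, with the highest pileup of the 6, and the Thbs2 peak described above.

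Several gene families were counted among the nearest genes. Vomeronasal receptors, which detect pheromones, were nearest to 27 of the 286 peaks (9.44%, 6.57 to 13.4%), against 20 of 1438 (1.39%, 0.90 to 2.14%). The 27 peaks belonged to 12 clusters or single positions, and 13 of them were the Vom2r9 peaks of the third cluster. Other clusters of 10 or more peaks held 2 and 2 peaks nearest to Vom2r7 and 1 nearest to Vom2r26. The share with such clusters left out of both sets was not computed. Olfactory receptors were nearest to 17 peaks (5.94%, 3.74 to 9.31%) at 14 such positions, against 3.76% (2.89 to 4.87%), so that the intervals overlapped. Most of these 17 were annotated as RatSatRep2 (9) or LINE (7). Cytochrome P450 genes, which encode enzymes of drug and steroid metabolism, were nearest to 4 peaks (Cyp2b12, Cyp2f4, Cyp2e1 and Cyp2c22), that is 1.4% (0.55 to 3.54%), against 3 of 1438 (0.21%, 0.07 to 0.61%). MicroRNA genes were nearest to 6 peaks (2.10%, 0.96 to 4.50%), near the 25 of 1438 (1.74%, 1.18 to 2.55%) elsewhere. Kallikreins were nearest to 0 of the 286 peaks and to 0 of the 1438. Zfp and Zscan genes were nearest to 0 of the 286 and to 13 of the 1438 (0.90%, 0.53 to 1.54%), and the Wilson interval of the chromosome 1 share reaches 1.33%. The number of genes of each family on each chromosome was not analysed here, and these counts were not tested.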

How the data were processed

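H1T2 ChIP-sequencing of 2 IP and 2 input samples was used. Per the labels and the file header, reads were aligned to rn6 with Bowtie2, and MACS 2.0.9 was run by the authors on merged files with broad regions and a p-value cutoff of 5e-05. The methods of the study also describe merged files, with another MACS version and cutoff, and in addition peaks found in each replicate and then overlapped. The header was followed. The deposited signal is the pileup in tags, and the deposited fold enrichment is its ratio to the background. The deposited -log10 p-value was used for ranks and a filter. Background was computed as pileup divided by fold enrichment, and a value within 0.01 tags of the smallest counted as the genome background. The list gives no depth for either sample of a group.

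Peaks were counted by midpoint in bins of 5 Mb, and the partial last bin was left out of variance to mean ratios. Intervals are 95% exact Poisson (densities, fold enrichment), exact conditional (ratios), Wilson (shares) and order-statistic (medians), and cover counting error only. No p-value was computed. The functions were tested on simulated data. Named bins were the 5 densest and the 5 sparsest. Named peaks were the 5 of smallest p-value, the 5 of largest fold enrichment, the 3 longest, the 3 each of highest pileup and background, the strongest of each of the 5 densest bins and both ChIP-PCR regions. Nearest genes and repeats are the study's annotation (HOMER), used as words, from a shortened copy of a longer table. Clusters, and any other bin, peak or repeat, were singled out after their values were seen. Members and lists were chosen with earlier results of these data known. Alternative settings were other bins, filters on background, fold enrichment and p-value, merging of neighbours and other sets of peaks. Python 3.11.15, numpy 2.4.6, pandas 2.3.3, scipy 1.17.1 and matplotlib 3.10.9 were used.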

Additional observations from a re-analysis of the deposited data

How the results depend on the processing

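No paired analysis was possible because the deposited list, whose header names merged files, has no values per replicate. Of 52 alternatives, 15 left a value within its interval (for variance to mean, within 1.5 times), and 37 moved it. None brought the density ratio below 1. With a -log10 p-value of at least 10, density was 2.80 per Mb, the ratio 1.35, the share in the 5 densest bins 28.3%, and the medians 295 bp, 30 tags, a background of 4.55 tags and 6.63-fold, with 10.9% at the genome background. With a fold enrichment of at least 5, the values were 3.09 per Mb, 1.13, 17.4%, a variance to mean ratio of 2.53, 259 bp, 20 tags, 2.51 tags and 24.6%. This filter acts on a value that contains the background. Counting peaks within 100 kb once gave 2.27 per Mb, 1.01, 12.5% and 0.647, and by construction removes more where peaks are dense. With backgrounds of at most 5 times the genome background, the values were 3.87 per Mb, 1.13, 16.5% and 3.11. Without the densest bin, the ratio was 1.18 and the median background 3.72 tags.

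Chosen after seeing the data, the removal of clusters of 10 or more gave 4.01 per Mb, 1.08, 13.8% and 1.91, with medians of 20 tags, a background of 3.31 tags and 6.36-fold, and 18.3% at the genome background, and without the 3 largest clusters the median background was 3.51 tags and the median fold enrichment 6.17. Counting each pair of tags once, with a p-value of at most 1e-05, gave 3.54 per Mb. The cause of these changes was not tested beyond what each alternative removes. A merged list without values per sample limits all results: no difference could be set against the spread between animals. Span stands in for chromosome length, and how many reads could be placed in repeats was not analysed here.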

Other observations

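Chromosome 1 peaks covered 478.3 kb in all, 1692 bp per Mb of span, against 1252 bp per Mb on chromosomes 2 to 20. Most of this difference lay in clusters of 10 or more peaks, as the peaks outside them covered 1277 bp per Mb against 1150.5 bp per Mb. Length rose with pileup to a like degree on chromosome 1 and on the others (Spearman's rho 0.40 over 1398 peaks and 0.39 over 9165 peaks, across peaks of the same merged libraries). The largest stretch of chromosome 1 without a peak was 2.11 Mb, against 2.75 Mb on the other autosomes. Single peaks, with no other within 100 kb, numbered 357 (25.5%), against 35.6% elsewhere.

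The satellites SATI_RN and ISAT_RN of the largest cluster were also named at annotated peaks of other autosomes. SATI_RN was named at 38 peaks on chromosome 1, at 15 on chromosome 13 and at 7 on chromosome 7. ISAT_RN was named at 14 peaks on chromosome 1 and at 6 on chromosome 13. Backgrounds were similar. SATI_RN peaks had a median background of 87.0 tags and a median fold enrichment of 3.02 on chromosome 1, against 72.4 tags and 3.09 on chromosomes 2 to 20, with overlapping quartiles of the background (68.6 and 107.7 tags against 48.7 and 106.3 tags).

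In the bin from 215 to 220 Mb, 61.9% of the 21 peaks had the genome background, as had 60.0% of the 20 peaks from 140 to 145 Mb, against 15.4% over the chromosome. The median pileup of both bins was 14 tags.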
